A study of Mus musculus with 9 samples.

Results

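BDL are splenic B cells of the follicular gate that carry little or no IgD on their surface, and the genes described here are those whose expression set BDL apart from both follicular (FO) and marginal zone (MZ) B cells. The study sorted BDL, FO and MZ B cells from naive mice 8 to 10 weeks of age by FACS, after negative selection of B cells by magnetic cell sorting, and sequenced their mRNA. Each sort pooled 5 mice and gave 1 library, and 3 sorts were made for each subset, so that there were 9 libraries in all. The titles carry 1 of 3 numbers that read as dates and recur in each subset, and the replicate numbers used here follow them. BDL and FO B cells shared the gate B220+IgMintCD21intCD23+CD93- and differed in IgD, which was low in BDL and high in FO, whereas MZ B cells were B220+IgMhiCD21hiCD23-CD93-. The labels name no treatment and no engineered allele for any group. They give the strain as C57/BL6, whereas the study's methods name B10.PL for these animals.

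Membership was set by the values themselves. A row of the table was a member when all 3 BDL values lay above, or all 3 lay below, each of the 6 FO and MZ values. Of the 24459 rows, 1262 were members above and 538 were members below. Values are in FPKM, fragments per kilobase of transcript scaled to the mapped fragments of the library. Of the members, 1045 and 417 reached an average of 0.5 FPKM across all 9 libraries and were tested. They are 9.01% and 3.6% of the 11597 rows tested. The size of the difference was taken as BDL minus the mean of FO and MZ on the log2(FPKM + 0.1) scale, which understates the change of genes near 0.1 FPKM. At an adjusted p under 0.05 from limma and a difference of at least 2-fold, 122 members were higher in BDL (1.05% of the rows tested) and 65 were lower (0.56%), and these are called set apart below. With overlap allowed, the same adjusted p and 2-fold difference gave 166 rows higher and 174 lower. At an unadjusted p under 0.05 alone, with no minimum difference and overlap allowed, the counts were 2516 rows higher and 1239 lower. Without BDL replicate 2 there were 104 lower rows in place of 65. Since non-overlap chose these rows, their separation is a description and not a result of its own, and the p-values come from the fit over all rows tested. At the boundary, Car2 was just inside, with a lowest BDL value of 3.882 FPKM and a highest FO value of 3.879, and Pde8a was just outside, with 2.82, 2.73 and 2.14 FPKM in BDL and 2.897, 3.08 and 2.799 in FO.

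A B cell that leaves the bone marrow passes through transitional stages, in which it still carries CD93 and high CD24, before it becomes a follicular or a marginal zone cell. Follicular cells recirculate and carry IgD and CD23, and marginal zone cells stay beside the splenic sinus, depend on Notch2 and carry high CD21 and CD1d. BDL were set against both at once here, and the distance from each is given beside the main genes.

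The libraries held 446033 to 517208 FPKM in sum, no counts were given, and from the steps between low values 1 fragment on a transcript of 1 kb was worth approximately 0.0138 to 0.0184 FPKM. BDL replicate 3 lay at -79.8 on PC2 (17.3% of the variance), far from the other libraries, which lay between -28.1 and 38.8, and it was the highest BDL value for 723 of the 1045 members above. The B lineage genes Ms4a1, Cd79a and Pax5 were high in every library, and Fcer2a (CD23) had 389 to 476 FPKM in BDL, 448 to 538 in FO and 26.05 to 34.5 in MZ, the order of the gate. The gene for the IgD heavy chain has no row in the table, so the property that defines BDL was not measured here. Without MZ replicate 3 there were 1743 members above in place of 1045, and without BDL replicate 2 there were 648 members below in place of 417.

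The balance of members above and below rested on the scaling. With the values as deposited 71.5% of the tested members were above, and with each library scaled to its upper quartile 49.1% were (676 above and 700 below). The genes set apart were less moved, with 65.2% higher as deposited and 52.0% after upper quartile scaling, and the median difference over all rows tested went from 0.054 to -0.034. For that reason single genes and groups are described below, and not the excess of higher over lower genes.

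The 122 higher genes had a median difference of 1.51, against 0.054 over all rows tested, and the 65 lower rows one of -1.30. Their levels were modest, with a median BDL mean of 4.57 FPKM for the higher genes and 1.43 FPKM for the lower rows, compared with 9.69 FPKM over all rows tested. The nearer of the other subsets was FO for 95 of the 122 higher genes and MZ for 27. Of the 65 lower rows FO was nearer for 59 and MZ for 6. In the comparison of MZ with FO, where 5.54% of all rows were called higher and 3.39% lower in MZ, 62 of the 122 higher genes were called lower and 5 higher in MZ, and of the 65 lower rows 33 were called higher and 0 lower in MZ. A difference from the mean of 2 unlike subsets can thus be large although BDL hardly leave the nearer one, as for Pde2a (0.25 from FO and 4.38 from MZ). When a 2-fold difference from FO and from MZ was asked for separately, an alternative chosen after the data were seen, 57 higher genes and 18 lower rows were left, and for 24 and 17 the nearer subset was within 1.5-fold.

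**Figure D1:**
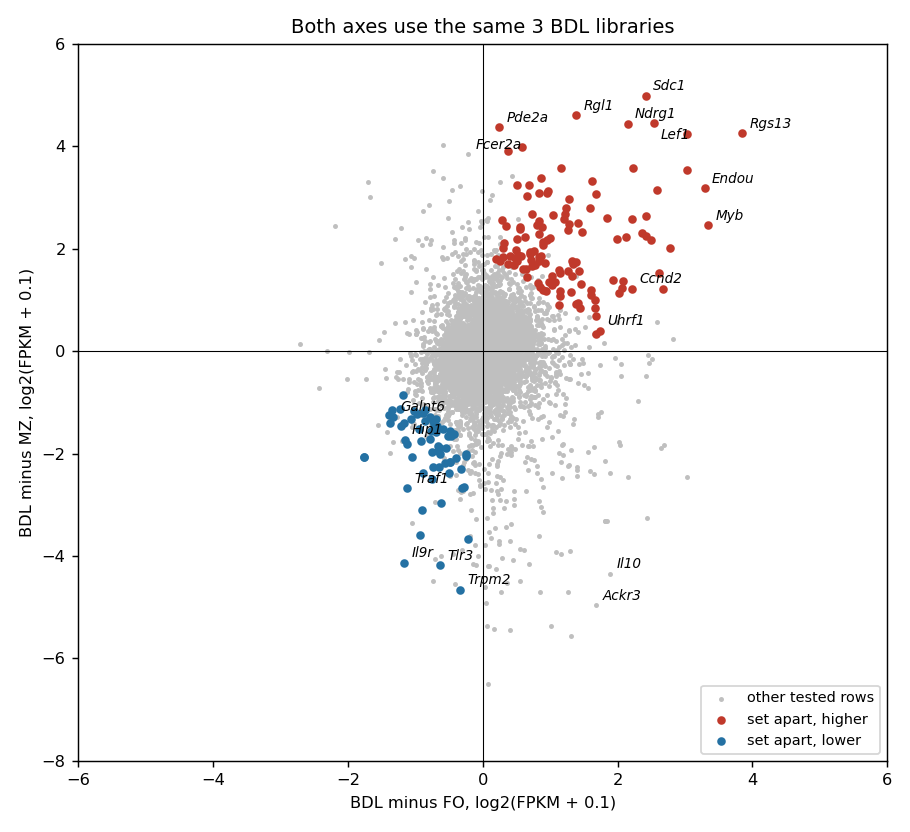
Log2 difference of BDL from FO (x axis) and from MZ (y axis) for each row tested, on the log2(FPKM + 0.1) scale, with genes set apart in red (higher) and blue (lower); rows of short RNAs are not drawn, and both axes use the same 3 BDL libraries. Red points such as Rgs13, Endou and Myb lie far from both axes, whereas Pde2a and Trpm2 lie next to the y axis, where BDL and FO differ little.

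Rgs13, a regulator of G protein signalling that is abundant in germinal centre B cells, had the largest difference of the higher genes. It had 3.42, 4.12 and 6.37 FPKM in BDL replicates 1 to 3, 0.172, 0.268 and 0.222 in FO and 0.133, 0.251 and 0.0676 in MZ. The difference was 4.05 (SE 0.29, adjusted p = 0.000141 from limma). All 3 BDL libraries were far above the FO and MZ libraries, which overlapped with each other. The gene lies on chromosome 1, 145985797 to 146024502 of NCBIM37 (mm9). Endou, a poly(U)-specific endoribonuclease known from immature B cells (chromosome 15, 97541450 to 97561836), had 14.3, 11.9 and 11.3 FPKM in BDL replicates 1 to 3, 1.17, 1.18 and 1.203 in FO and 1.67, 1.24 and 1.01 in MZ. Its difference was 3.24 (SE 0.15, adjusted p = 3.11e-05 from limma), with nearly the same distance from FO (3.29) and from MZ (3.19). The FO values lay within the range of the MZ values, and all 3 BDL values were far above both.

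Wnt10a, a secreted Wnt ligand, had 2.69, 1.79 and 2.53 FPKM in BDL replicates 1 to 3, 0.244, 0.188 and 0.154 in FO and 0.127, 0.142 and 0.0597 in MZ. BDL minus the others gave 3.29 (SE 0.23, adjusted p = 0.000141 from limma). Nrgn, which encodes the calmodulin-binding neurogranin, had 9.42, 8.38 and 9.41 FPKM in BDL, with FO at 1.201 to 1.703 and MZ at 0.819 to 1.001 (2.87, SE 0.12, adjusted p = 3.11e-05 from limma). Both genes separated BDL from FO and MZ by more than 4-fold on each side, and their FO values lay above their MZ values. Hivep3, a large zinc finger protein, rose to 4.86, 6.06 and 6.08 FPKM in BDL from 0.8703 to 1.03 in FO and 0.708 to 0.922 in MZ. The difference was 2.53 (SE 0.12, adjusted p = 3.43e-05 from limma). The values of 1100001G20Rik were 5.46, 5.66 and 6.17 FPKM in BDL, but varied from 0.339 to 1.34 in FO and from 0 to 0.513 in MZ, and its difference of 3.64 had the widest standard error (0.60) of the 15 largest.

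The transcription factors Lef1, Myb, Sox4 and Gfi1 were all set apart, and each was at least 4-fold over FO and over MZ. Lef1, the nuclear partner of beta-catenin in Wnt signalling and a factor of early B cells (chromosome 3, 130813389 to 130927274), had 6.04, 6.76 and 6.85 FPKM in BDL replicates 1 to 3, 0.814, 1.26 and 1.12 in FO and 0.226, 0.336 and 0.0915 in MZ. The 3 BDL values were close to each other, FO was intermediate and MZ was lowest. BDL minus the others gave 3.50 (SE 0.25, adjusted p = 0.000141 from limma). Sox4, an HMG box factor needed early in the B lineage, followed the same order with 4.09, 4.46 and 7.11 FPKM in BDL replicates 1 to 3, 0.923, 0.893 and 1.23 in FO and 0.318, 0.364 and 0.318 in MZ. The difference was 2.90 (SE 0.19, adjusted p = 0.000124 from limma). Myb, which controls proliferation and survival of progenitors (chromosome 10, 20844736 to 20880790), had 16.9, 20.7 and 6.99 FPKM in BDL replicates 1 to 3, 1.16, 1.31 and 1.23 in FO and 2.85, 3.75 and 1.23 in MZ. Its difference was 2.90 (SE 0.41, adjusted p = 0.00263 from limma), and here MZ and not FO was the nearer subset. Replicate 3 had the lowest Myb value in both BDL and MZ, and Gfi1, a transcriptional repressor (chromosome 5, 108145674 to 108155056), showed the same with 8.21, 14.9 and 4.02 FPKM in BDL, 1.11, 2.06 and 1.36 in FO and 1.44, 2.76 and 0.846 in MZ. For Gfi1 the difference was 2.34 (SE 0.46, adjusted p = 0.0116 from limma), and its exons overlap those of A430072P03Rik on the opposite strand. Exons of an opposite-strand gene also overlap Myb (Gm16786), Ndrg1, Cdk6, Galnt6, Tha1, Rab20, Olfr98, Ppp1r15a (Tulp2), Rapgef3, Jun, Pax5, Csf1r, Rag2 and Vpreb1 in GENCODE M1, and the sources differ on whether strand was recorded, so reads of these genes and their partners may not be told apart.

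Lef1 and Myb are both set apart and each belongs to a family with a known DNA motif, so a promoter of each is shown, from 250 bases before to 50 bases after the RefSeq start in GRCm38.p6. Capitals mark any match, on either strand, to the Myb motif TAACNG, the E box CAGGTG, the LEF/TCF motifs CTTTGTT and CTTTGAA, or the E2F motif TTTCCCGC. The Lef1 promoter at chr3:131110073-131110372 (plus strand) held a Myb match and an E box match, and the Myb promoter at chr10:21160935-21161234 (minus strand) a LEF/TCF match. Lef1 has 4 starts in RefSeq, of which the second is shown since it held the most matches, and the third held none. The promoters of Sox4 and Rgs13 held none of the motifs.
Lef1: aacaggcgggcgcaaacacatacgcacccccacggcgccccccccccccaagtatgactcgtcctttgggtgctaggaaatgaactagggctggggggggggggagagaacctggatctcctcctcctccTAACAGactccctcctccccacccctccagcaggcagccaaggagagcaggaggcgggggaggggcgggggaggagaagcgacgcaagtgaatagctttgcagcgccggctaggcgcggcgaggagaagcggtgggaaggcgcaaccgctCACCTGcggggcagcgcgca
Myb: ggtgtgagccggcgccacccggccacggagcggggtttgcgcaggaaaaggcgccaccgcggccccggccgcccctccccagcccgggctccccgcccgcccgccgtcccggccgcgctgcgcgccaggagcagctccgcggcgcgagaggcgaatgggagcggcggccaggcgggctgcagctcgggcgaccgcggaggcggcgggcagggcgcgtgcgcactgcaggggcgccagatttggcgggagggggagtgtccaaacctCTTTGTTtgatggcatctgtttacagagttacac
A match describes these letters and not a bound site. Of the 122 higher genes 84 had a RefSeq promoter by symbol, and 22 of them (26.2%) held TAACNG, against 25.9% of the 27025 genes with a promoter. The share with CAGGTG was 28.6% (24 of 84) against 22.6%, that with CTTTGTT 5.95% against 6.68%, that with CTTTGAA 4.76% against 5.93%, and that with TTTCCCGC 1.19% against 1.24%. For the 50 lower genes with a promoter, 18.0% held TAACNG, 24.0% CAGGTG and 12.0% CTTTGTT.

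Several genes that encode surface molecules are described next. Sdc1, which encodes syndecan-1 (CD138), a proteoglycan used to mark plasma cells (chromosome 12, 8778129 to 8800521), had 6.86, 8.96 and 9.58 FPKM in BDL replicates 1 to 3, 1.61, 1.67 and 1.22 in FO and 0.114, 0.289 and 0.129 in MZ. BDL minus the others gave 3.70 (SE 0.22, adjusted p = 8.47e-05 from limma). The order BDL over FO over MZ held without overlap, as it did for Lef1. Cd93, a marker of transitional B cells for which the labels give all 3 gates as CD93-, had 10.2, 15.9 and 11.5 FPKM in BDL replicates 1 to 3, 3.097, 5.29 and 3.32 in FO and 1.36, 1.74 and 1.12 in MZ. The difference was 2.37 (SE 0.22, adjusted p = 0.000391 from limma). The order BDL over FO over MZ held for Cd93 too.

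Ly6c2, a GPI-anchored Ly6 protein, had 17.3, 15.6 and 14.4 FPKM in BDL, with 3.1 to 3.71 in FO and 2.04 to 3.37 in MZ. Its difference was 2.40 (SE 0.15, adjusted p = 0.0001097 from limma). Its close paralogue Ly6c1, which lies 59330 bases away on chromosome 15, was at 4.39, 4.56 and 2.81 FPKM in BDL against 1.29 to 1.51 in FO and 1.86 to 2.09 in MZ (1.17, SE 0.15, adjusted p = 0.00207 from limma), and how fragments were divided between the pair is not given. Emr1, which encodes the adhesion receptor F4/80, was about 4-fold over each of the others, with 3.13, 3.42 and 3.88 FPKM in BDL, 0.6396 to 0.887 in FO and 0.536 to 0.765 in MZ. Its difference was 2.09 (SE 0.16, adjusted p = 0.000175 from limma). The study listed F4/80 and Ly6C among the surface proteins whose increase in RNA its flow cytometry did not bear out. Folr4, a folate receptor homologue known on regulatory T cells and oocytes, had a difference of 2.40 (SE 0.15, adjusted p = 0.000118 from limma) at 1.94 to 2.42 FPKM in BDL. Hcrtr2, the orexin receptor 2, was at 1.06 to 1.52 FPKM in BDL, 0.315 to 0.358 in FO and 0.0149 to 0.0543 in MZ, and its call was lost with 1 in place of 0.1 added. Spn, which encodes CD43, a sialoprotein of early B cells and B-1 cells, had 6.89, 5.65 and 8.34 FPKM in BDL, 3.11, 2.64 and 3.02 in FO and 1.07, 1.15 and 0.965 in MZ. Its difference was 1.90 (SE 0.13, adjusted p = 0.000127 from limma). For CD43 protein the study's flow cytometry did find an increase, which it called marginal.

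**Figure D2:**
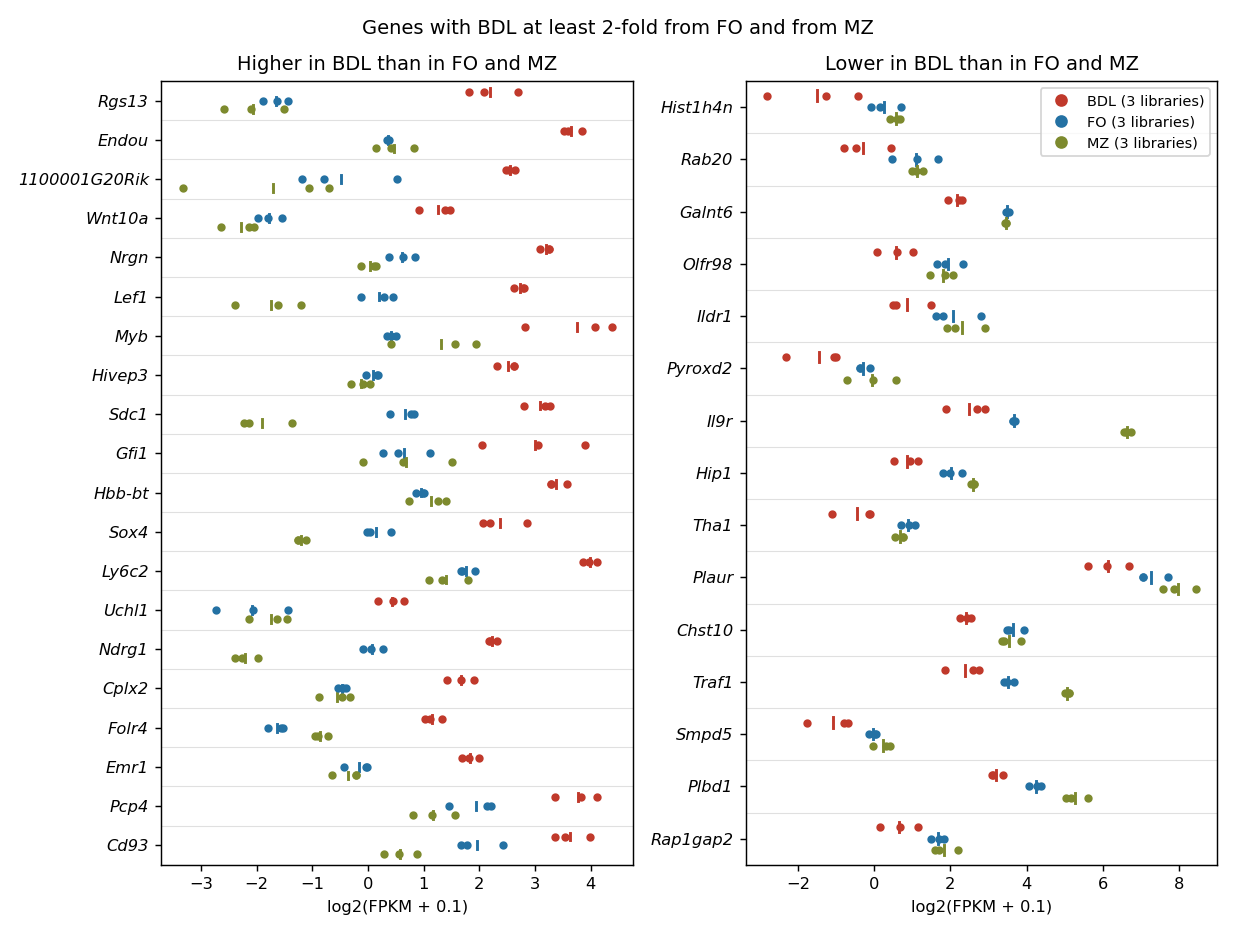
Log2(FPKM + 0.1) in each of the 3 BDL, 3 FO and 3 MZ libraries (points; the short bar is the mean of 3) for the 20 higher genes with the largest distance from the nearer subset, and for the lower genes, without short RNA rows, at least 2-fold from both. On the left each BDL value is to the right of every FO and MZ value, with a difference of 4.05 for Rgs13, whereas on the right the distances are smaller, and for Rab20 and Ildr1 the highest BDL value nearly reaches the lowest of the others.

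Ndrg1, a stress-responsive gene, had 4.44, 4.47 and 4.91 FPKM in BDL replicates 1 to 3, 1.11, 0.945 and 0.837 in FO and 0.153, 0.1097 and 0.0912 in MZ. This gave a difference of 3.30 (SE 0.14, adjusted p = 3.11e-05 from limma). Rgl1, an exchange factor for the GTPase Ral, had 6.91, 7.69 and 8.65 FPKM in BDL, 2.93, 2.99 and 2.74 in FO and 0.172, 0.292 and 0.209 in MZ. BDL were 4.61 over MZ (adjusted p = 1.78e-06 from limma) and 1.39 over FO (adjusted p = 0.00189). Akap12, an anchoring protein for protein kinase A, had a difference of 2.13 (SE 0.073, adjusted p = 1.81e-05 from limma) with 10.9, 11.6 and 12.6 FPKM in BDL, 4.497 to 5.003 in FO and 1.31 to 1.46 in MZ. Lck, a Src family kinase best known in T cells and also found in some B cells, had 21.9, 21.3 and 17.7 FPKM in BDL, 9.67, 9.004 and 8.52 in FO and 9.39, 11.02 and 6.703 in MZ. Its difference was 1.17 (SE 0.15, adjusted p = 0.00191 from limma). In BDL it was about 2-fold over both, while Cd3e had 0.116 to 0.342 FPKM in BDL, 0.1204 to 0.194 in FO and 0.0284 to 0.406 in MZ.

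Inhibitors of the Ras-ERK pathway and PEA3 Ets factors, which the same pathway induces, are given together. This family was picked after the values were seen, so its count is a description: 7 of its 13 genes were tested, all 7 had a difference above 0 with a median of 1.49, and 5 were members above, against 9.01% of all rows. Of the 7, 6 lay over FO, with a median of 0.80, and all 7 lay over MZ, with a median of 2.33. Etv5 had 4.69, 4.93 and 5.25 FPKM in BDL replicates 1 to 3, 1.45, 1.75 and 1.57 in FO and 0.602, 0.708 and 0.585 in MZ. The difference was 2.19 (SE 0.10, adjusted p = 3.11e-05 from limma). Spred1 had 1.74, 2.05 and 2.43 FPKM in BDL, 0.576 to 0.863 in FO and 0.312 to 0.362 in MZ. Its difference was 1.90 (SE 0.17, adjusted p = 0.000344 from limma). The values of Spry2 were 1.74, 2.37 and 1.94 FPKM in BDL, 0.665 to 0.928 in FO and 0.176 to 0.555 in MZ. Its difference was 1.82 (SE 0.27, adjusted p = 0.00338 from limma). Etv5, Spred1 and Spry2 were each more than 2-fold over FO and over MZ, with FO between BDL and MZ. Spred2 was nearer to FO (0.55, adjusted p = 0.09703 from limma) than to MZ (2.43), and Dusp6, an ERK phosphatase, was a member above at 18.7 to 26.3 FPKM with a difference of 0.74, under 2-fold.

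Of the 24 genes of early and transitional B cells, 14 were tested, 8 were called higher and 0 lower, and all 8 were set apart. Over all rows tested 1.43% were called higher, and 1.05% were set apart as higher. The list was drawn up with results of these data known, and its counts are a description. All 14 lay over FO and 10 lay over MZ. The median difference was 1.39, with 1.17 against FO and 2.02 against MZ, where all rows tested had medians of 0.048 and 0.057. The 8 genes were Lef1, Endou, Myb, Sox4, Cd93, Spn, Vpreb3 and Cecr2. Cecr2, a chromatin remodelling factor with a bromodomain, had 8.06, 8.76 and 7.17 FPKM in BDL, 3.58 to 3.597 in FO and 2.39 to 2.76 in MZ. Its difference was 1.36 (SE 0.081, adjusted p = 8.47e-05 from limma). Vpreb3, which binds the immunoglobulin light chain in precursor B cells, had 114, 119 and 149.5 FPKM in BDL, 92.2, 109 and 112 in FO and 18.6 to 23.4 in MZ. BDL were 0.28 above FO on Vpreb3 (adjusted p = 0.264 from limma), so that its call came from the distance to MZ. The recombinase genes Rag1 and Rag2 were at 0.0201 FPKM or less in every library, Igll1 and Mme were listed at 0 in all 9, and Vpreb1 was at 0.0895, 0.147 and 0.138 FPKM in BDL with up to 0.279 in MZ. Cd24a, which is high on transitional cells, had 333, 332 and 534 FPKM in BDL, 209, 242 and 251 in FO and 341, 343 and 439 in MZ, overlapping MZ (0.40, adjusted p = 0.159 from limma).

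**Figure D3:**
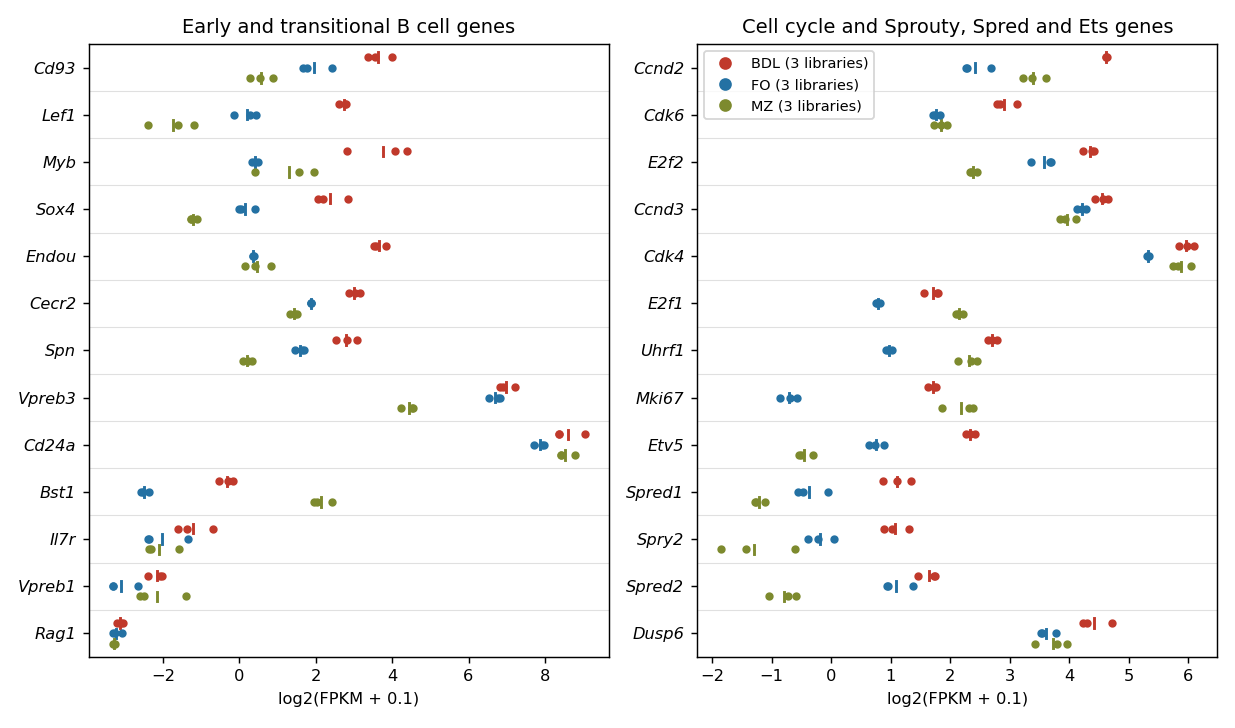
Log2(FPKM + 0.1) per library (points; short bar, mean of 3) for genes of early and transitional B cells (left) and for cell cycle and Ras-ERK feedback genes (right). Cd93 to Spn have BDL to the right of FO and MZ, Vpreb3 barely so, and Rag1 is at the lower end in all subsets; Ccnd2, Cdk6 and E2f2 have BDL on the right, whereas Mki67 and E2f1 have MZ on the right and BDL in the middle.

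Among cell cycle genes, those of entry from G1 are given first. The D cyclin Ccnd2, which opens G1 (chromosome 6, 127075797 to 127101066), had 24.3, 24.6 and 24.6 FPKM in BDL replicates 1 to 3, 4.699, 6.32 and 4.78 in FO and 10.2, 12.1 and 9.23 in MZ. This gave a difference of 1.72 (SE 0.12, adjusted p = 0.000127 from limma). Its BDL values were nearly equal, 2.21 over FO and 1.22 over MZ on the log2(FPKM + 0.1) scale. Cdk6, the kinase that D cyclins bind, had 6.81, 8.56 and 7.01 FPKM in BDL, 3.19 to 3.44 in FO and 3.23 to 3.74 in MZ. Its difference was 1.11 (SE 0.091, adjusted p = 0.000238 from limma). E2f2, a transcription factor of the G1 to S transition, had 20.8, 18.6 and 21.3 FPKM in BDL, 12.6, 10.2 and 12.9 in FO and 4.94 to 5.38 in MZ. Its difference was 1.37 (SE 0.092, adjusted p = 0.000127 from limma). All 3 were highest in BDL, with MZ nearer for Ccnd2 and FO nearer for E2f2. This family of 13 D cyclin, kinase and E2F genes was chosen after the values were seen; 11 were tested with a median of 0.24, and E2f1 had 3.32, 3.36 and 2.85 FPKM in BDL and more, 4.19, 4.54 and 4.304, in MZ.

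Genes of S and G2/M phase were set apart in 1 case, where 1.05% of all rows tested were set apart as higher. Of 38 S phase genes tested, 10 were members above and 0 below, against 9.01% and 3.6% of all rows, 33 lay over FO and 26 over MZ, and the median difference was 0.32. Only Uhrf1, a factor that maintains DNA methylation, passed the call, with 6.82, 6.41 and 6.12 FPKM in BDL, 1.94, 1.8 and 1.83 in FO and 5.39, 5.01 and 4.29 in MZ (1.07, SE 0.086, adjusted p = 0.000218 from limma), and the call was lost after upper quartile scaling and with 1 in place of 0.1 added. Of 44 G2/M genes tested, 37 lay over FO but 16 over MZ, with medians of 0.29 and -0.086, 5 were members above and 0 below, and none was set apart. Mki67, the proliferation marker, had 2.99, 3.22 and 3.295 FPKM in BDL, 0.517, 0.571 and 0.451 in FO and 5.099, 4.89 and 3.53 in MZ, with a difference of 2.42 from FO (adjusted p = 0.000144 from limma) and -0.48 from MZ (adjusted p = 0.0498). On Mki67 the BDL values lay between those of FO and MZ, nearer to MZ, and Top2a, a topoisomerase of dividing cells, had 4.21, 4.91 and 5.404 FPKM in BDL, 1.06 to 1.36 in FO and 4.27 to 5.93 in MZ, overlapping MZ.

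Lists of other B cell states gave 1 to 3 genes each, of which Spn also stands in the early list and Zbtb32 in the lists of B-1 and memory cells. Among all rows tested 1.05% were set apart as higher and 0.56% as lower. Of 10 germinal centre genes tested, Rgs13 was the only one set apart. Bcl6, the master regulator of that state, had 27.5, 26.1 and 25.7 FPKM in BDL, 34.2, 28.98 and 34.4 in FO and 6.84, 8.94 and 7.03 in MZ. Of 15 plasma cell genes tested, Sdc1 was the only one set apart. The list's median was -0.25, with 0.23 against FO (9 genes over FO) and -0.67 against MZ (3 genes over MZ). Prdm1, the regulator of plasma cell fate, was at 0.725, 1.18 and 0.885 FPKM in BDL with 0.376 to 0.814 in FO and 3.497 to 5.41 in MZ.

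All 18 genes of B-1 cells were tested, and all 18 lay over FO but 7 over MZ, with medians of 1.16 and -0.33. Set apart were Spn, Zbtb32 and Bhlhe41, where 1.05% of all rows tested were set apart as higher. Zbtb32, a repressor found in memory and B-1 cells, had 3.59, 2.57 and 1.65 FPKM in BDL, 0.462 to 0.626 in FO and 0.824 to 1.35 in MZ. Its difference was 1.58 (SE 0.25, adjusted p = 0.0045 from limma). Bhlhe41, a regulator of B-1 cell self-renewal, had 6.01, 6.29 and 5.53 FPKM in BDL, 1.53, 2.16 and 1.72 in FO and 3.84, 3.62 and 3.57 in MZ. Its difference was 1.18 (SE 0.11, adjusted p = 0.000376 from limma). For both MZ was the nearer subset, and with 1 in place of 0.1 added neither was called. Cd5 had 2.21, 2.45 and 1.63 FPKM in BDL, 0.638, 0.566 and 0.385 in FO and 1.89, 2.18 and 1.51 in MZ, where BDL and MZ overlapped. Of 10 memory genes tested, Zbtb32 was the only one set apart. The median was -0.20, with -0.055 against FO and -0.25 against MZ.

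Of 28 genes of regulatory ligands and cytokines, 17 were tested, with medians of 0.23 against FO and -0.45 against MZ, 2 were members above (Il2ra and Lgals1) and 2 below (Cd40 and Pdcd1lg2), against 9.01% and 3.6% of all rows tested. Tnfsf18, which encodes GITRL, the ligand of a receptor on regulatory T cells, had 0.317, 0.235 and 0.252 FPKM in BDL, 0.0938, 0.115 and 0.103 in FO and 0.765, 0.689 and 0.592 in MZ. BDL lay over FO and under MZ in every library, at levels under the minimum for a test. Il10 was higher in MZ, with 0.885, 1.15 and 0.543 FPKM in BDL, 0.144, 0.165 and 0.145 in FO and 17.96, 22.05 and 16.5 in MZ, and so was Cd80, at 0.522 to 0.821, 0.209 to 0.307 and 2.22 to 3.14 FPKM in the same order. Above both lay Il2ra, the alpha chain of the interleukin 2 receptor, with 2.05, 1.92 and 1.96 FPKM in BDL, 1.09, 1.07 and 0.9203 in FO and 1.54, 1.25 and 0.991 in MZ. The difference was 0.76 (SE 0.14, adjusted p = 0.00871 from limma), under 2-fold. For CD25, the surface protein that Il2ra encodes, the study's flow cytometry did not bear out the increase in RNA. Lgals1, which encodes galectin-1, was the gene of this list that was set apart, with 13.7, 10.96 and 13.99 FPKM in BDL, 8.01, 7.55 and 7.92 in FO and 3.54, 3.71 and 2.64 in MZ. Its difference was 1.32 (SE 0.12, adjusted p = 0.000431 from limma). Among all rows tested 1.05% were set apart as higher. Lrrc32, which encodes the TGF-beta docking receptor GARP, was a member above with 0.503, 0.633 and 0.389 FPKM in BDL, 0.1097, 0.151 and 0.0662 in FO and 0.0142, 0.0408 and 0.0339 in MZ, and was too low to be tested.

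**Figure D4:**
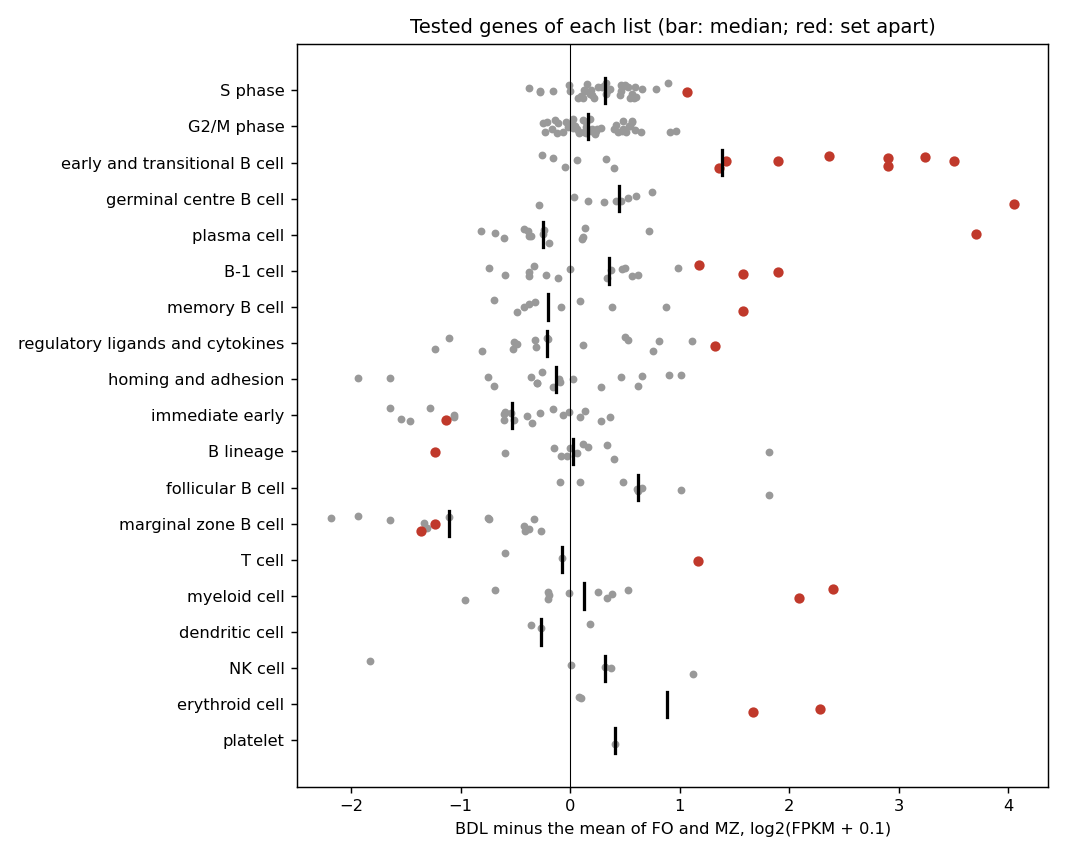
Difference of BDL from the mean of FO and MZ, on the log2(FPKM + 0.1) scale, for each tested row of 19 gene lists, with the list median as a black bar and genes set apart in red. Early and transitional genes hold 8 red points with a median of 1.39, marginal zone genes lie to the left of 0 with a median of -1.11, and the other B cell lists hold 0 to 3 red points.

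The lower genes held some that FO and MZ expressed at like levels and more that MZ expressed strongly and FO weakly. Galnt6, which starts O-linked glycosylation (chromosome 15, 100522244 to 100559807), was of the first kind. It had 4.62, 4.88 and 3.76 FPKM in BDL replicates 1 to 3, 10.9, 11.1 and 11.6 in FO and 10.9, 10.8 and 10.7 in MZ. This gave a difference of -1.30 (SE 0.085, adjusted p = 0.000124 from limma), with FO and MZ at nearly the same level and all 3 BDL values below it. Chst10, a sulfotransferase of the HNK-1 carbohydrate, behaved alike with 4.67, 5.75 and 5.29 FPKM in BDL, 11.4, 15.1 and 11.05 in FO and 10.1, 10.5 and 14.4 in MZ. Its difference was -1.18 (SE 0.15, adjusted p = 0.00167 from limma). Hip1, an endocytic adaptor, had 2.104, 1.82 and 1.34 FPKM in BDL, 4.82, 3.4 and 3.84 in FO and 6.005, 5.75 and 6.06 in MZ. Its difference was -1.44 (SE 0.15, adjusted p = 0.000734 from limma). Tha1, a threonine aldolase, had 0.823, 0.8097 and 0.366 FPKM in BDL against 1.54 to 1.999 in FO and 1.37 to 1.59 in MZ. Its difference was -1.25 (SE 0.23, adjusted p = 0.00858 from limma). All 4 were more than 2-fold under FO and under MZ on the log2(FPKM + 0.1) scale.

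Traf1, an adaptor of TNF receptors that NF-kB induces (chromosome 2, 34797270 to 34817292), had 6.57, 5.93 and 3.51 FPKM in BDL replicates 1 to 3, 12.7, 10.5 and 11.04 in FO and 34.2, 34.5 and 31.8 in MZ. The difference was -1.90 (SE 0.18, adjusted p = 0.0004698 from limma). Plaur, the urokinase receptor, was the most abundant lower gene at this distance, with 69.3, 103 and 48.4 FPKM in BDL, 134, 208 and 131 in FO and 191, 347 and 231 in MZ (-1.47, SE 0.28, adjusted p = 0.0108 from limma), and a distance from FO of -1.13 that did not pass the test (adjusted p = 0.0775 from limma). Replicate 2 had the highest Plaur value in each subset, and within each replicate number BDL was lowest. Plbd1, a phospholipase B-like protein, had 8.39, 8.59 and 10.4 FPKM in BDL, 16.7, 20.7 and 19.2 in FO and 32.9, 35.6 and 48.9 in MZ. Its difference was -1.56 (SE 0.14, adjusted p = 0.000365 from limma). Rab20, Ildr1, Olfr98, Pyroxd2, Smpd5 and Rap1gap2 were also at least 2-fold under both, with differences from -1.39 for Rab20 to -1.09 for Rap1gap2 and levels from 0.103 to 0.398 FPKM (Pyroxd2) to 1.32 to 2.73 FPKM (Ildr1) in BDL. Of these 6, Olfr98 passed the test against FO alone (adjusted p = 0.0217 from limma), and for the others that p was 0.0532 to 0.139. The remaining rows of this kind were the repeated symbol Hist1h4n (0.0436, 0.315 and 0.646 FPKM in BDL, 0.846 to 1.53 in FO and 1.23 to 1.495 in MZ), whose call was lost without BDL replicate 2, without FO replicate 1 or 2, or without MZ replicate 1 or 2, and the short RNA rows Mir1896 and Snord45c, whose values are not described here.

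Il9r, the interleukin 9 receptor (chromosome 11, 32087541 to 32100279), had the largest difference of the lower genes outside the short RNA rows. It had 7.44, 6.38 and 3.58 FPKM in BDL replicates 1 to 3, 12.5, 12.4 and 12.8 in FO and 106, 97.7 and 92.9 in MZ. This gave a difference of -2.65 (SE 0.20, adjusted p = 0.000175 from limma). BDL were under FO by -1.17 (adjusted p = 0.02203 from limma) and under MZ by -4.13. Its neighbour Rhbdf1, an inactive rhomboid protein 9306 bases away on chromosome 11, had 1.88, 1.54 and 0.9398 FPKM in BDL, 2.56, 2.75 and 3.001 in FO and 19.3, 17.7 and 17.1 in MZ. Its difference was -2.26 (SE 0.18, adjusted p = 0.000219 from limma). Both were high in MZ, low in FO and lowest in BDL.

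Trpm2, a calcium channel gated by ADP-ribose, had 0.138, 0.157 and 0.0967 FPKM in BDL, 0.189, 0.186 and 0.196 in FO and 5.44, 6.3 and 5.36 in MZ, and BDL and FO differed by -0.34 (adjusted p = 0.273 from limma). Tlr3, the receptor for double-stranded RNA, showed the same order with 0.526, 0.424 and 0.669 FPKM in BDL, 0.792, 0.991 and 0.874 in FO and 8.79 to 15.3 in MZ, and -0.64 between BDL and FO (adjusted p = 0.1204 from limma). For these genes BDL and FO did not overlap but did not differ at an adjusted p under 0.05 either. Grip2, Camkmt, Ccdc79, Lurap1, Perm1, Eppk1 and Zap70 were of this order too. Of these 7, Ccdc79, Eppk1 and Zap70 differed from FO at adjusted p = 0.0428, 0.0475 and 0.03403 (limma), by -0.62, -0.75 and -0.75, all under 2-fold. With 1 in place of 0.1 added, Grip2, Perm1 and Eppk1 were no longer called. When FO and MZ were merged into 1 group, so that their distance from each other counted as spread, 43 higher and 9 lower rows were left.

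Among 15 marginal zone genes, all tested, 8 were called lower and 0 higher, where 1.5% of all rows tested were called lower with or without overlap. Of the 8, Cr2 and Hes1 were members below (3.6% of all rows), and Notch2 was a member that was not called. Of the 15, 11 lay over FO, with a median of 0.85, and all 15 lay under MZ, with a median of -2.52. Cr2, which encodes CD21 and on which the gates differ, had 109, 97.8 and 115 FPKM in BDL, 137, 136 and 149.7 in FO and 456, 400.0 and 505 in MZ. Its difference was -1.24 (SE 0.099, adjusted p = 0.0002104 from limma). Hes1, a target of Notch signalling, had 10.8, 8.73 and 15.95 FPKM in BDL, 18.4, 19.1 and 20.5 in FO and 41.2, 33.8 and 66.4 in MZ. Its difference was -1.36 (SE 0.24, adjusted p = 0.00722 from limma). Both were lowest in BDL, and against FO alone neither passed the test, at adjusted p = 0.0747 for Cr2 and 0.139 for Hes1 (limma). Asb2, Ackr3, S1pr3, Myof and Plxnd1 lay between FO and MZ, for example S1pr3 at 1.998 to 2.25 FPKM in BDL, 1.02 to 1.27 in FO and 41.6 to 78.5 in MZ.

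Of 8 follicular genes, 7 lay under FO, with a median of -0.29, all 8 lay over MZ, and none was a member. Among all rows tested 9.01% were members above and 3.6% below, and 1.43% were called higher with or without overlap. Ccr7, the receptor that leads cells to T zones, was the follicular gene that passed the test beside Fcer2a, with 252, 375 and 280.5 FPKM in BDL overlapping FO (251 to 323), against 63.7 to 108 in MZ (1.01, SE 0.20, adjusted p = 0.0112 from limma). The call of Ccr7 was lost with upper quartile scaling, quantile normalization, median centring or FO and MZ merged, and without BDL replicate 2, FO replicate 1 or 3, or MZ replicate 1 or 3. Of 18 homing and adhesion genes tested only Gpr183, the oxysterol receptor that places B cells in the follicle, was a member, below, with 47.1, 52.7 and 50.7 FPKM in BDL, 93.6, 104 and 89.3 in FO and 69.98, 64.8 and 90.0 in MZ (-0.75, SE 0.11, adjusted p = 0.00395 from limma), under 2-fold. Ccr6, a chemokine receptor, overlapped MZ and lay under FO, at 34.9 to 38.2 FPKM in BDL, 81.1 to 88.6 in FO and 37.4 to 47.1 in MZ.

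Immediate early genes, which stimulation induces within minutes, had a median difference of -0.53 over 22 tested, with 0 members above and 3 below (Myc, Klf6 and Dusp1), against 9.01% and 3.6% of all rows. Jun and Atf3 passed the test while overlapping FO, with differences of -1.06 (adjusted p = 0.0227 from limma) and -1.65 (adjusted p = 0.0256). Myc had 109, 106 and 102 FPKM in BDL, 121, 141 and 116 in FO and 379.8, 390.3 and 518 in MZ (-1.13, SE 0.12, adjusted p = 0.000734 from limma), and its distance from FO was -0.25 (adjusted p = 0.3005 from limma). Klf6 was at 98.7 to 111 FPKM in BDL, 137 to 161 in FO and 142 to 204 in MZ. Its difference was -0.60 (SE 0.12, adjusted p = 0.0128 from limma). Ppp1r15a, which restores translation after stress, was set apart below with 139, 164 and 164 FPKM in BDL, 248, 319.8 and 277 in FO and 331, 402 and 486 in MZ. Its difference was -1.11 (SE 0.14, adjusted p = 0.00176 from limma). Dmpk and Dmwd, neighbours on chromosome 7, lay under FO and over MZ, with Dmwd at 1.65 to 2.53, 5.96 to 7.81 and 0.141 to 0.235 FPKM, and were not members.

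Markers of other cell types were measured beside these results. In bulk libraries a few cells of another type and a low level in all B cells cannot be told apart. Among all rows tested 1.05% were set apart as higher and 0.56% as lower. Of 14 T cell genes, 3 were tested; Lck was set apart, and the list sum was 21.0 to 27.0 FPKM in BDL, 12.1 to 14.6 in FO and 9.69 to 17.1 in MZ. That sum includes Lck, the only 1 of the 3 tested with a difference above 0, and their median was -0.069. Cd3e, Cd3g, Cd4, Thy1 and Bcl11b were each at most 0.607 FPKM in every library, and values of the other T cell genes are not given here. Of 16 myeloid genes, 12 were tested, Ly6c2 and Emr1 were set apart, and the sum was 43.0 to 59.1 FPKM in BDL, 27.0 to 42.2 in FO and 71.8 to 93.1 in MZ, while Csf1r was at 0.3299 to 0.435 FPKM in BDL and 0.434 to 0.626 in MZ. Lyz2, S100a8 and S100a9 were higher in replicate 2 of every subset, at 0.656 to 2.43 FPKM for Lyz2 in BDL, and overlapped between the subsets.

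Of the erythroid genes 4 rows were tested, and Hbb-b1 and Car2 were set apart as higher, against 1.05% of all rows tested. Car1 was listed at 0 in all 9 libraries. Hbb-b1 had 6.42, 5.13 and 6.05 FPKM in BDL, 1.19 to 2.02 in FO and 1.47 to 2.97 in MZ (1.67, SE 0.23, adjusted p = 0.00269 from limma), and the second beta globin Hbb-bt had 9.63, 9.66 and 11.8, 1.72 to 1.92 and 1.56 to 2.56 FPKM (2.34, SE 0.15, adjusted p = 0.000119 from limma). The first row of the alpha globin Hba-a1, at 1.08 to 1.57 FPKM in BDL, 0.415 to 1.85 in FO and 1.43 to 2.34 in MZ, overlapped. Both beta globins were more than 2-fold over FO and MZ in the mean and the alpha globin was not, and fragments of globin paralogues may have been divided between rows. Of 5 NK cell genes tested none was a member, and Prf1, which encodes perforin, had a difference of -1.83 (adjusted p = 0.00218 from limma) with overlap between BDL and FO, and Klrd1 one of 1.12 (adjusted p = 0.0984, or 0.0204 with the replicate number as a block and 0.0209 without FO replicate 2). Of 3 dendritic cell genes tested Bst2 was a member above, with a difference of 0.18 (adjusted p = 0.0861 from limma), while Flt3 (-0.36) and Xcr1 (-0.26) were not called. The 1 platelet gene tested, Itgb3, was no member (0.41). Beside these counts of members, 9.01% of all rows tested were members above and 3.6% were members below. The part of other cells in Lck, Ly6c2, Emr1 and the beta globins was not tested.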

How the data were processed

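RNA-seq was analysed for 9 libraries of sorted splenic B cells, 3 each of BDL, FO and MZ, mapped to subsets and replicate numbers from the sample labels. The authors aligned the reads to mm9 with TopHat2 2.1.0, computed FPKM with Cufflinks (version and annotation not given in the sources used here) and deposited 1 FPKM table without counts. The methods name a stranded kit and the labels reads without strand, so overlapping antisense genes are uncertain. Rows were used as deposited; 776 rows carry a repeated symbol. A table of the authors' own test results was not used here.

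A constant of 0.1 was added before taking log2, and 11597 rows that averaged 0.5 FPKM or more were fitted over all 9 libraries with limma 3.58.1 in R 4.3.3 (eBayes with a trend), with the contrast BDL minus the mean of FO and MZ, and the pairwise contrasts. Adjusted p-values are Benjamini-Hochberg values over these rows. A gene was set apart at an adjusted p under 0.05, a 2-fold difference and no overlap. Replicates are separate sorts of pools of 5 mice. The members and gene lists were chosen with earlier results of these data known. Named genes were the 15 largest differences each way without short RNA rows, up to 4 per list, and a fixed set of genes of the study; others, such as genes at least 2-fold from both subsets, were chosen after their values were seen. In simulated data of 11597 rows for this contrast, 200 genes received a log2 change of 1.5. Of these 90.5% were recovered, with 0 calls elsewhere, and with a change of 2 95% were recovered, with 2 calls elsewhere. FO and MZ were given the same mean in each simulated row, and noise was independent between libraries. The simulation therefore cannot gauge wrong calls in rows where FO and MZ differ. FPKM give no depth, so it was gauged from the smallest increments among genes that have a single transcript of 3000 nt or more, where 68.8% to 78.4% of values came within 0.1 of whole fragments.

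Positions came from GENCODE M1 (NCBIM37), which has 20901 of 23954 symbols, and promoters from RefSeq (GRCm38.p6). Figures were drawn with matplotlib 3.10.9. The alternatives, with their effect, are given in the closing section.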

Additional observations from a re-analysis of the deposited data

How the results depend on the processing

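The 122 higher genes became 69 with 1 in place of 0.1 added, 186 without a minimum FPKM, 43 with FO and MZ merged, 785 at an adjusted p alone and 57 with a 2-fold difference from each subset; the 65 lower rows became 32, 70, 9, 328 and 18 in the same order. Leaving out 1 library at a time gave 121 to 135 higher genes and 59 to 104 lower rows, with 104 without BDL replicate 2, and the tested members numbered 1069 to 1743 above (1743 without MZ replicate 3) and 438 to 648 below (648 without BDL replicate 2). In these fits 112 to 120 of the 122 higher genes stayed set apart, and 46 to 58 of the 64 distinct lower genes did. After quantile normalization 111 higher and 47 lower genes did. Upper quartile scaling gave 676 members above and 700 below, and 104 higher genes and 96 lower rows set apart. The share of genes set apart that were higher was 65.2% as deposited, 52.0% after upper quartile scaling, 66.0% after quantile normalization and 58.2% with libraries centred on their median, and that of members above was 71.5%, 49.1%, 58.7% and 59.6%. The subsets share replicate numbers, taken from the date-like number in the titles, which no label explains. With that number as a replicate block 122 higher genes were called, all 122 of them shared with the fit without it, and 72 lower rows, and of the named genes Klrd1 gained a call (adjusted p = 0.0204 from limma). Deviations from the subset means of same-numbered libraries correlated at -0.062 to 0.24, and at 0.0077 to 0.024 between FO and MZ. In 14 of 18 cases a library correlated best with the one of its own number in another subset, a hint from the data and not from the design. The 18 cases reuse the same correlations and are not independent, and their count by chance was not computed. Dmpk, which was not called (0.13), reversed to -0.32 with 1 added, -0.15 and -0.10 without BDL replicates 1 and 2, and -0.025 without MZ replicate 3, and leaving out 1 library at a time gave -0.15 to 0.65. Of 1310 recomputed differences of the 60 tested named genes, 1240 kept their direction and side of the threshold, 57 lost and 9 gained the call and 4 reversed. For this count the threshold was adjusted p and 2-fold alone, and overlap of the values was not considered. With FO and MZ merged 34 genes lost the call. The cause of these changes was not tested. Repeated symbols left out, a 2-fold difference from each subset and median centring were chosen after the data were seen. The files limit these results by their lack of counts, by 3 libraries per subset and by low FPKM, where the added constant shrinks differences. No group of 3 libraries could be tested for outliers.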

Other observations

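The S100 and galectin families, chosen after their values were seen, held several genes set apart. Of 20 genes 13 were tested, 11 had a difference above 0, 5 were members above (9.01% of all rows tested), 0 were below (3.6%) and the median was 0.44. S100a6, a calcium-binding protein, had 18.3, 14.1 and 16.1 FPKM in BDL, 9.79, 7.75 and 6.72 in FO and 3.197, 3.803 and 3.16 in MZ. Its difference was 1.61 (SE 0.14, adjusted p = 0.000286 from limma). S100a10, the partner of annexin A2, had 162, 145 and 222 FPKM in BDL, 125, 118 and 127 in FO and 41.4, 40.8 and 50.8 in MZ. Its difference was 1.23 (SE 0.14, adjusted p = 0.00107 from limma). Lgals3, which encodes galectin-3, had 4.14, 3.36 and 4.67 FPKM in BDL, 2.58 to 2.88 in FO and 0.571 to 0.777 in MZ. Its difference was 1.47 (SE 0.13, adjusted p = 0.000344 from limma). In each of these FO lay between BDL and MZ. Against FO alone S100a6 passed the test (0.996, adjusted p = 0.00838 from limma). S100a10 (0.49, adjusted p = 0.108 from limma) and Lgals3 (0.55, adjusted p = 0.0668) did not, so that their calls came from the distance to MZ. For the main difference S100a11 (0.096, adjusted p = 0.638 from limma) and Lgals8 (-0.076, adjusted p = 0.554) did not pass the test.

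Genes named here after their values were seen include a number of enzymes and cytoskeletal proteins. Psat1, of serine synthesis, had 11.99, 11.1 and 14.1 FPKM in BDL, 4.65, 4.99 and 5.22 in FO and 5.77, 5.63 and 5.15 in MZ. Its difference was 1.23 (SE 0.088, adjusted p = 0.000141 from limma). Fabp5, a fatty acid carrier, had 2.16, 2.46 and 2.09 FPKM in BDL, 0.192 to 0.376 in FO and 0.687 to 1.12 in MZ. Its difference was 1.94 (SE 0.20, adjusted p = 0.000719 from limma). Ephx1, an epoxide hydrolase, had 98.01, 103 and 126 FPKM in BDL, 48.6, 52.6 and 47.9 in FO and 55.2, 55.3 and 63.7 in MZ. Its difference was 1.01 (SE 0.099, adjusted p = 0.0005297 from limma). Actn1, which crosslinks actin, had 2.92, 2.81 and 2.21 FPKM in BDL, 0.269 to 0.448 in FO and 0.609 to 1.03 in MZ (2.07, SE 0.20, adjusted p = 0.000561 from limma), and Tubb2b, a beta tubulin, had 10.1, 8.08 and 9.68, 3.88 to 4.26 and 2.74 to 3.52 FPKM (1.34, SE 0.10, adjusted p = 0.000188 from limma). Ifng, which encodes interferon gamma, was set apart at 0.654, 0.991 and 0.9599 FPKM in BDL, 0.395 to 0.575 in FO and 0.137 to 0.279 in MZ (1.25, SE 0.24, adjusted p = 0.0114 from limma), with an adjusted p of 0.166 against FO. Nfatc2, a factor of calcium signalling, lay below, with 4.35, 5.66 and 6.25 FPKM in BDL, 8.905, 9.74 and 10.96 in FO and 10.6, 12.1 and 13.7 in MZ. Its difference was -1.01 (SE 0.13, adjusted p = 0.00213 from limma). Among the 169 of 186 set-apart genes with a GENCODE M1 position, 5 pairs lay nearer than 100000 bases to each other, and the genes of each pair were set apart in the same direction, as Mmp11 with Vpreb3, Il9r with Rhbdf1, Ly6c1 with Ly6c2, Endou with Rapgef3, and Galnt6 with Slc4a8.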
